A study of Drosophila melanogaster with 2 samples.

Results

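The peaks described here are places where the fly protein CG17612 was found at a promoter from which transcription is annotated in 1 direction only. A peak belonged to them if its summit, the base with the highest signal, lay within 500 bp of an annotated transcript start site and all start sites within that distance were on the same strand or belonged to 1 gene. By this rule 648 of the 2042 peaks on the 7 chromosome arms (2L, 2R, 3L, 3R, 4, X, Y) were one-direction promoter peaks (31.7%, 95% Wilson interval 29.8 to 33.8). Of the other peaks, 348 lay at divergent promoters, with start sites of different genes on both strands, and 1046 lay farther than 500 bp from every start site. The material was whole Drosophila melanogaster embryos aged 0 to 24 h that carried an insertion expressing a CG17612-eGFP fusion, and the fusion protein was captured with an anti-GFP antibody. There were 2 biological replicates, both of this genotype, with no group to set against them. The labels do not name the promoter that drives the fusion, and the embryos are a mixture of all cell types and stages of that window, so a peak cannot be assigned to a cell type. The lists hold peaks and no read counts, so the depth behind a peak is unknown, and intervals on shares cover counting error only.

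A promoter is the stretch of DNA around a transcription start site where RNA polymerase II and its general factors assemble, and sequence-specific proteins that bind there, often a little upstream, help to set when a gene is used. In the compact fly genome many genes stand head to head and share one stretch between their start sites, so that a peak there cannot be given to either gene. At a one-direction promoter upstream and downstream are defined, which lets a summit be placed relative to the gene. CG17612 is a protein with zinc fingers of the C2H2 type, a fold found in many proteins that read DNA sequence. Chromatin immunoprecipitation recovers the fragments that a protein lies on or close to, and the irreproducible discovery rate (IDR) used for these lists keeps peaks that rank alike in replicates.

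Sequences at some of these peaks shared a directional feature: a word of 7 bases, CACAGTG, to one side of the summit. The 4 regions below hold it, and they are shown because in each the summit lay to the right of the word when the word is read 5′ to 3′. They are the highest-scoring holders outside annotated exons, not counting one chromosome arm that is left out of sequence display. Each sequence runs 5′ to 3′ on the strand given, from 15 bp before the word to 15 bp past the summit, on the Release 6 (dm6) genome from RefSeq, with the word in capitals.
RluA-1, 2L:10474404-10474545, + strand: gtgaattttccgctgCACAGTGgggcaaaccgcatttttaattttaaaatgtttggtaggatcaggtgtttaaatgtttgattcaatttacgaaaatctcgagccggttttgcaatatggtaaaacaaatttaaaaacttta
Rtnl1, 2L:4997559-4997665, + strand: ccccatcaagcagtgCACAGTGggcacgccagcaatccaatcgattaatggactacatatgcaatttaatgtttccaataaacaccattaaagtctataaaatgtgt
PAN3, 3L:3081438-3081534, - strand: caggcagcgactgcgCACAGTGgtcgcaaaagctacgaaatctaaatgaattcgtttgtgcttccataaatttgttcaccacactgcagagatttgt
Fhos, 3L:8766136-8766272, - strand: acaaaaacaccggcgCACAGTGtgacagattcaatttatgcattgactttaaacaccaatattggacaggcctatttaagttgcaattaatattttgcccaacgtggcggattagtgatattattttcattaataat
The genes nearest to these peaks encode a pseudouridine synthase (RluA-1), a reticulon of the endoplasmic reticulum (Rtnl1), a subunit of an mRNA deadenylase (PAN3) and a formin that builds actin filaments (Fhos). The summit lay 108 bp from the word at RluA-1, 73 bp at Rtnl1, 63 bp at PAN3 and 103 bp at Fhos.

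The words behind this feature came from a search over all words of 8 bases. A wide window, reaching 100 bp to either side of the summit, was set against an equal window centred 400 bp upstream. There 2 of 7494 words passed an exact McNemar test after Benjamini-Hochberg adjustment. CACAGTGG was held by 44 of 648 summit windows (6.79%), against 6 upstream windows (0.926%; exact adjusted p = 3.82e-05), and by 0.94% of the windows of that size at all 9788 one-direction promoters of protein-coding genes. CACTGTGC was held by 42 summit windows (6.48%), against 9 upstream windows (1.39%; exact adjusted p = 0.00736), and by 1.05% of all one-direction promoters. Read on one strand, both words overlap in CACAGTG and together spell GCACAGTGG. In a narrow window, reaching 50 bp to either side with a flank centred 300 bp upstream, none of 2180 words passed (0%, 107 with an unadjusted p under 0.05), and the wide window was an alternative to it. Peaks near each other share sequence and are not independent, which holds for all tests over peaks here.

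The place of the word relative to the summit was looked at only after the words were found, so it is described without a test. Copies of CACAGTG within 150 bp of a summit numbered 110 at 91 of the one-direction promoter peaks. At 86 of the 110 copies (78.2%, 69.6 to 84.9) the summit lay on the 3′ side of the word, at a median distance of 76.5 bp (quartiles 51.3 and 106 bp). For the full GCACAGTGG within the same reach the summit lay on the 3′ side at 50 of 50 copies (100%, 92.9 to 100), at a median of 74 bp. These copies were spread over 43 peaks, and copies in one peak are not independent. Past that reach copies lay on both sides. At 150 to 175 bp the summit was on the 3′ side of 3 copies and on the 5′ side of 3, and at 175 to 200 bp of 3 and 2. In the next bins of 25 bp, from 200 to 300 bp, the counts were 2 and 0, 2 and 0, 0 and 1, and 5 and 0. The summit was thus still more often on the 3′ side there. Within 150 bp the direction for GCACAGTGG was the same in the peaks called from each replicate alone, at 33 of 35 copies in replicate 1 and at 45 of 46 in replicate 2, lists that share many peaks with the conservative list. It was also seen outside one-direction promoters, in peaks that had no part in finding the words: at 11 of 13 copies at divergent promoters and at 70 of 81 copies at peaks away from start sites. For the shorter CACAGTG it held at 23 of 35 copies at divergent promoters (65.7%, 49.1 to 79.2) and at 127 of 176 away (72.2%, 65.1 to 78.2), and the kinds of peak were not tested against each other. The plot of distances between word and summit shows both words in the 3 kinds of peak.

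**Figure D1:**
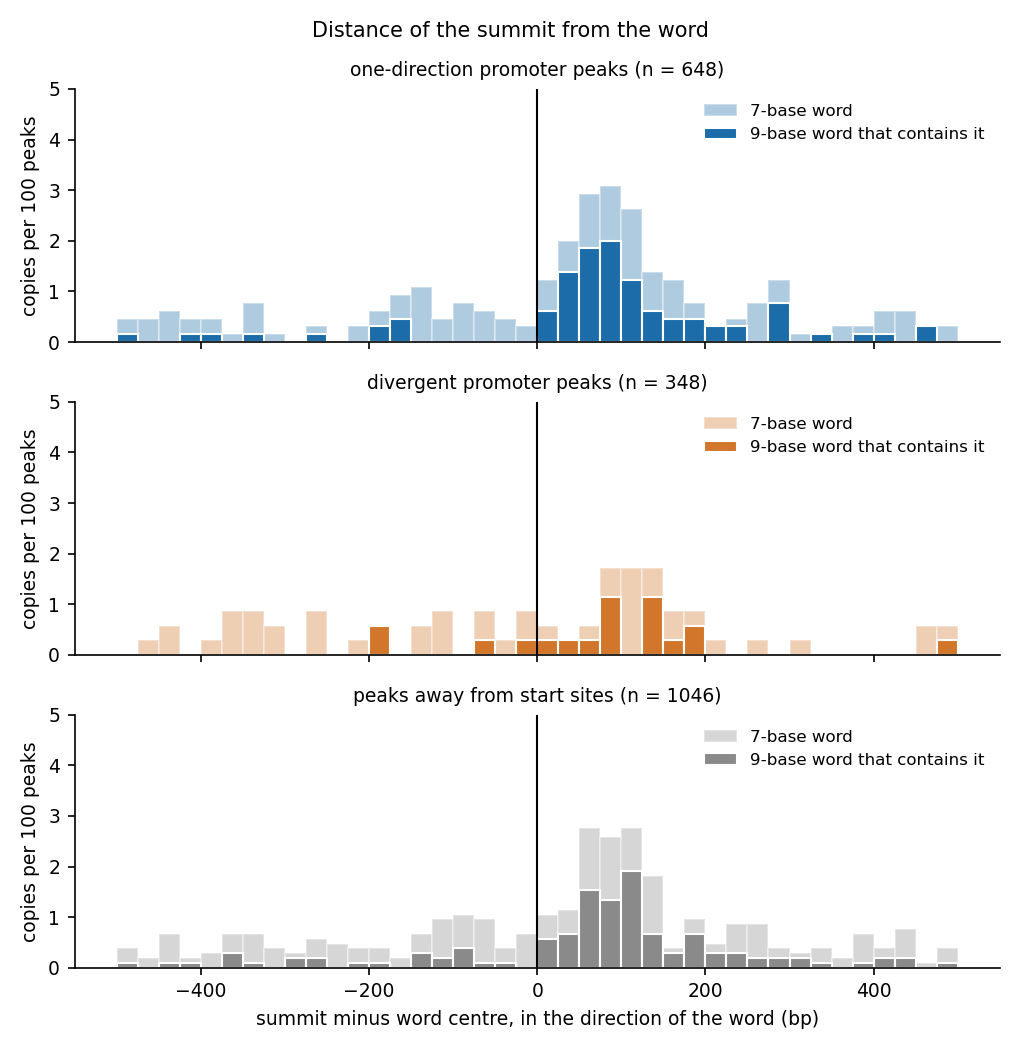
Distance from the centre of the word to the peak summit, measured in the direction of the word (bp, positive where the summit lies on its 3′ side), as copies per 100 peaks in bins of 25 bp, for one-direction promoter peaks (n = 648), divergent promoter peaks (n = 348) and peaks away from start sites (n = 1046). Pale bars are copies of CACAGTG and dark bars the copies within GCACAGTGG; in the top panel all 50 copies of the longer word within 150 bp lie right of 0.

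Counting the copies that lay 25 to 150 bp on the 5′ side of the summit, 65 of the 648 peaks (10.03%) held CACAGTG, against 22 peaks (3.40%) with a copy at the mirrored distance. Of the divergent promoter peaks 20 of 348 (5.75%) held it there, against 9 (2.59%) at the mirrored distance, and of the peaks away from start sites 92 of 1046 (8.80%), against 41 (3.92%), so the share at one-direction promoters was close to that away from start sites. At one-direction promoters the base before the word was G in 57 of the 78 copies at this distance (73.1%) and the base after it was G in 57 (73.1%), while farther out the commonest base was found in at most 39 of the 78. These 2 shares of G follow in part from how the word was obtained, since the called words CACAGTGG and GCACAGTG came from the same peaks. At peaks away from start sites, which had no part in finding the words, the shares of G were 72.4% and 70.7% of 116 such copies. The word stood on the strand of the gene in 29 of the 65 peaks (44.6%, 33.2 to 56.7) and on the other strand in the rest. Holders were spread over the score range: they made up 22 of the 162 highest-scoring peaks (13.6%), 17 and 16 of the next groups of 162 (10.5% and 9.88%) and 10 of the 162 lowest (6.17%). Summits were upstream of the start site in 53 of the 65 holders (81.5%) and in 452 of the 583 other peaks (77.5%). Of the 65 holders 19 were on X (29.2%, 19.6 to 41.2), against 107 of the 583 others (18.4%, 15.4 to 21.7). The 4 holders whose sequences are shown were picked by score after this pattern was seen.

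Most summits lay upstream of the gene. Of the 648 summits, 505 (77.9%, 74.6 to 81.0) were upstream of the nearest start site, and the median position was 135 bp upstream. The stretch from 51 to 250 bp upstream alone held 314 (48.5%), against 60 (9.26%) in the same stretch downstream. Between 250 and 500 bp the counts were 140 upstream and 62 downstream, and 72 summits (11.1%) lay within 50 bp of the start site on either side. The lists of the single replicates gave 362 of 442 summits upstream in replicate 1 (81.9%, 78.0 to 85.2) and 359 of 434 in replicate 2 (82.7%, 78.9 to 86.0), with median positions of -139.5 bp in replicate 1 and -165 bp in replicate 2 (negative upstream). The replicates differed close to the start site: 57 of the 442 summits of replicate 1 (12.9%, 10.1 to 16.3) and 25 of the 434 of replicate 2 (5.76%, 3.93 to 8.37) were within 50 bp of it. The plot of summit positions shows the same hump upstream in all 3 lists and the lower bars of replicate 2 next to the start site.

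**Figure D2:**
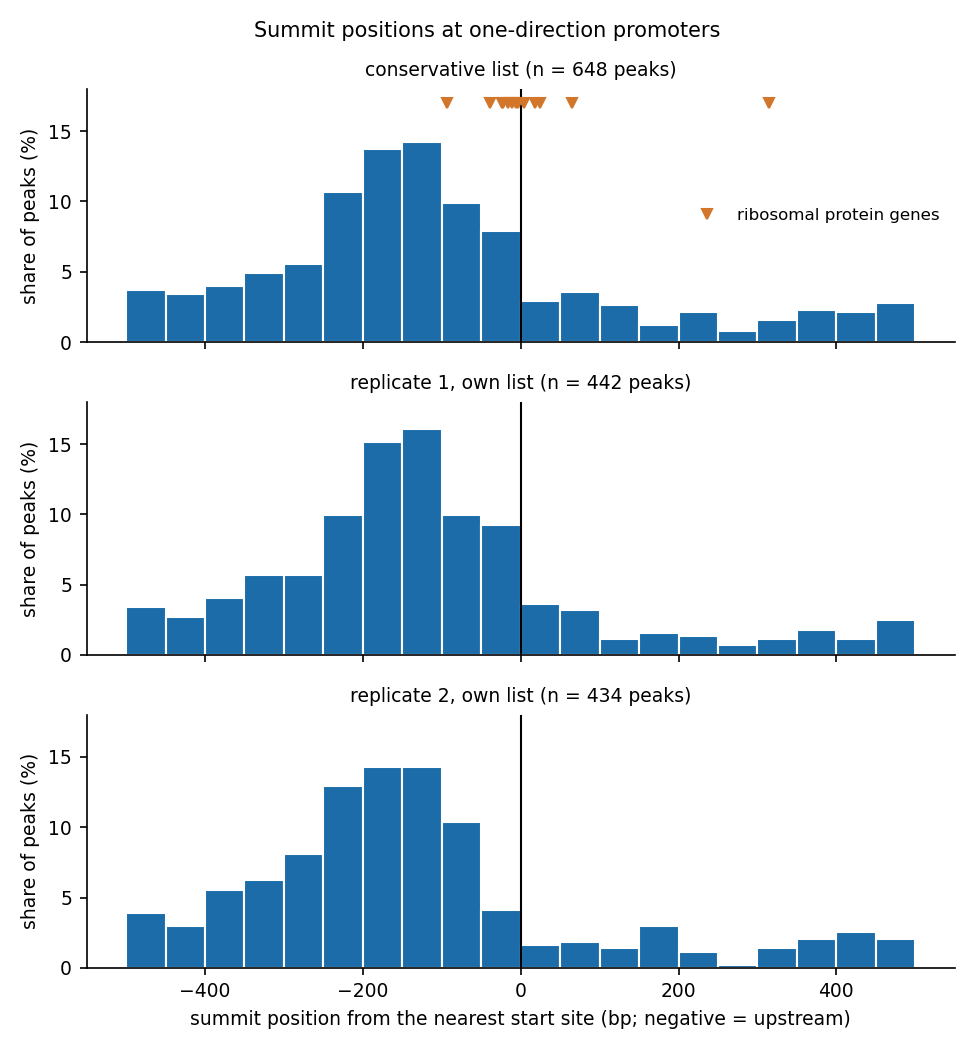
Position of the summit from the nearest start site (bp, negative upstream), as the share of one-direction promoter peaks in bins of 50 bp, in the conservative list (n = 648) and in the lists of replicate 1 (n = 442) and replicate 2 (n = 434). Triangles mark the peaks of 13 ribosomal protein genes, 12 of which lie within 100 bp of the nearest start site, while the bars peak at 100 to 200 bp upstream.

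Peaks upstream and downstream of the start site differed in strength and base composition. The score, which is the authors' signal value for a peak and has no stated scale, was above the median of all peaks (98.2) at 60.4% of the upstream peaks and at 37.1% of those at or downstream of the start site. Both replicates' own thresholded lists covered the summit at 50.7% of the upstream peaks and at 28.7% of the others. The median score was 123 from 51 to 250 bp upstream, 85.6 within 50 bp of the start site and 77.3 from 51 to 250 bp downstream. Narrow summit windows had a median GC content of 31.7% in the upstream stretch, 46.0% within 50 bp of the start site and 43.1% in the downstream stretch. Replicate 1 scored above replicate 2 at 54 of 71 peaks within 50 bp of the start site (76.1%, 65.0 to 84.5), with a median ratio of 1.26, and at 205 of 313 peaks from 51 to 250 bp upstream (65.5%, 60.1 to 70.5), with a median ratio of 1.10. These are descriptions, and no test was run between positions. The 500 bp limit cut through a continuous range: CG17896 (499 bp, score 409), tgo (499 bp, 70.9), which encodes a partner of many bHLH-PAS proteins, and Srpk79D (497 bp, 83.4), a kinase gene, were the last inside. The first outside were peaks near lncRNA:CR44363 (501 bp, 177.5), lncRNA:CR44517 (504 bp, 102) and the small heat shock gene Hsp22 (504 bp, 73.3).

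The strongest one-direction promoter peaks belonged to genes of varied function. At Ugalt, the gene of a UDP-galactose transporter, the peak (X:2703750-2704027) scored 1229, with 572 in replicate 1 and 672 in replicate 2. CG14100 (3L:19590476-19590745) scored 1188, with 630.4 and 573.9 in replicates 1 and 2, and mRpL41, which encodes a protein of the mitochondrial ribosome (2R:15217614-15217887), scored 1127, with 631 and 496. These 3 peaks stood apart from the rest, since the next, at ph-p, a Polycomb group gene whose product is a subunit of Polycomb repressive complex 1, scored 783. The score of the ph-p peak depends on how reads were shared with ph-d, its near-identical neighbour, which is not given in the sources used here. PNPase, for a mitochondrial exoribonuclease, had 780.0 and a summit in a 5′ UTR, 68 bp past the start site, and Fkbp14, for a protein-folding enzyme, had 643.

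Below these came CG18549 (639.9), lncRNA:CR44619 (625), the wing vein gene px (589), tank (570.0) and Sox14 (530.1), which encodes a transcription factor of the Sox family. RluA-1 (518), CG1635 (505), Tina-1 (505) and the glutathione transferase gene GstE13 (499.5) followed. The next were gish (488), which encodes a casein kinase 1 of the gamma type, Gapdh2 (485), which encodes a glycolytic enzyme, and CG1888 (467). A second peak at lncRNA:CR44619 scored 467, so that this gene had strong peaks on both sides of its start site, 471 bp upstream and 494 bp downstream. Rtnl1 (441), the transporter genes MFS18 (439.5) and MFS10 (422), lncRNA:CR31044 (435), CG11357 (417.5) and CG46429 (411) complete the 25 highest. Of the 648 peaks, 549 had the common width of 324 bp and 99 were narrower; the narrow ones had a median score of 312, against 93.7 for the others.

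Few of these peaks stood before several genes. Start sites of 1 gene only lay within 500 bp of the summit at 617 peaks, of 2 genes at 25 and of 3 genes at 6. The highest with several was the mRpL41 peak, which also lay near lncRNA:CR44463. The next were CG46429 and Sesn (411), the second of which encodes a sestrin of nutrient signalling, elav and lncRNA:enrr (313), elav being the neuronal RNA-binding protein gene, Ufsp1 and Cyp6u1 (268.5), and Uhg4, a host gene of small nucleolar RNAs (242). The nearest gene was protein-coding at 581 peaks, a non-coding RNA gene at 58, a small nuclear RNA gene at 4, a small nucleolar RNA gene at 3, and a tRNA gene and a pseudogene at 1 each.

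Many peaks lay at inner promoters of genes with several. Of the 648 summits, 282 (43.5%) were between genes, 179 (27.6%) in an intron of the gene itself, 77 (11.9%) in a 5′ UTR and 38 (5.86%) in a non-coding exon. A further 37 were in an intron of another gene, 25 in a coding exon and 10 in a 3′ UTR. When start sites of a gene within 500 bp of each other were joined into clusters, 277 peaks were nearest to a gene with 2 or more clusters, and 90 of them (32.5%, 27.3 to 38.2) were at the first cluster. Among all 5315 such clusters of protein-coding genes, 39.6% are the first of their gene, and no test was run. Those clusters include ones at divergent promoters, which the rule keeps out of the peaks, and the peaks were not limited to protein-coding genes. The shares therefore come from unlike sets, and no difference is drawn from them. The peaks had 595 nearest genes, of which 35 had 2 peaks and 8 had 3 or more.

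The genes with most peaks were dnc, the dunce gene of cAMP phosphodiesterase, and Rtnl1, with 4 each. At Rtnl1 the peaks lay 224 to 294 bp upstream of 4 different start-site clusters out of 7, all in introns of the gene, and scored 441, 262, 154 and 84.1. Ptpmeg2, which encodes a protein tyrosine phosphatase, had its 3 peaks in introns 175 to 220 bp upstream of 3 of its 6 clusters, with scores of 244, 176 and 121. At both genes the summits lay at similar distances upstream of separate start sites. The 4 peaks of dnc scored 237, 174, 103 and 4.14, and those of 174 and 4.14 overlap. Scores as low as 4.14 occurred where a peak lay on the shoulder of a stronger one: 35 of 645 peaks had less than 2/3 of the sum of their replicate scores, since the replicate scores are those of the highest overlapping peak. The other genes with 3 peaks were ph-p, Fkbp14, CAP, CG5910 and lncRNA:CR45251.

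Genes of cytoplasmic ribosomal proteins had one-direction promoter peaks of a different position and replicate balance. Over all protein-coding genes, 554 of 13968 (3.97%) had such a peak no farther than 500 bp from a start site. Of 93 ribosomal protein genes 13 did (14.0%, 8.36 to 22.5). Their summits sat close to the nearest start site: 10 of the 13 (76.9%) were within 50 bp of it and 12 within 100 bp, against 72 (11.1%) and 157 (24.2%) of all 648, and the median position was -6 bp. For the RpS6 peak that site was the one of CR33222, 65 bp away. RpS28b scored 164 (24 bp upstream), RpS4 144 (6 bp upstream), RpL23A 138 (94 bp upstream) and RpL30 134 (24 bp downstream), and none of the 13 was under 67.97 or over 164.

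These ribosomal protein peaks scored higher in replicate 1 than in replicate 2. Replicate 1 had the higher score in 13 of 13, with a median ratio to replicate 2 of 1.66, against 418 of 645 peaks (64.8%) and a median ratio of 1.10 overall. At RpL30 the scores were 99.45 in replicate 1 and 37.6 in replicate 2, at RpS4 96.5 and 44.7, at RpS28b 107 and 55.5, and at RpL23A 88.2 and 48.6. They were closer at RpS15Aa (51.5 and 48.7), RpS23 (43.2 and 37.7) and RpL11 (35.1 and 31.1). In the replicates' own thresholded lists 12 of 93 ribosomal protein genes had a one-direction promoter peak in replicate 1 (12.9%, 7.54 to 21.2) and 3 of 93 in replicate 2 (3.23%, 1.10 to 9.06). Over all protein-coding genes the shares were 2.89% in replicate 1 and 2.76% in replicate 2. The share for these genes was thus above that of all genes in the list of replicate 1 and near it in that of replicate 2. Those lists need not hold the same 13 peaks. Of the 13 summits, 8 lay under a thresholded peak of replicate 1 and 3 under one of replicate 2, while all 13 had ranked peaks in both. Among the higher-scoring 50% of peaks the count was 7 of 93 (7.53%). The position and the replicate balance of these peaks were looked at after their values were seen, and the cause was not tested. Of 51 translation factor genes 3 had a peak (5.88%, 2.02 to 15.9), an interval that holds the 3.97% of all genes. These 3, eEF1gamma (206.5), eEF1alpha1 (138) and eIF3c (95.3), had their summits 34, 87 and 16 bp upstream, and replicate 1 was higher at 2 of the 3.

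**Figure D3:**
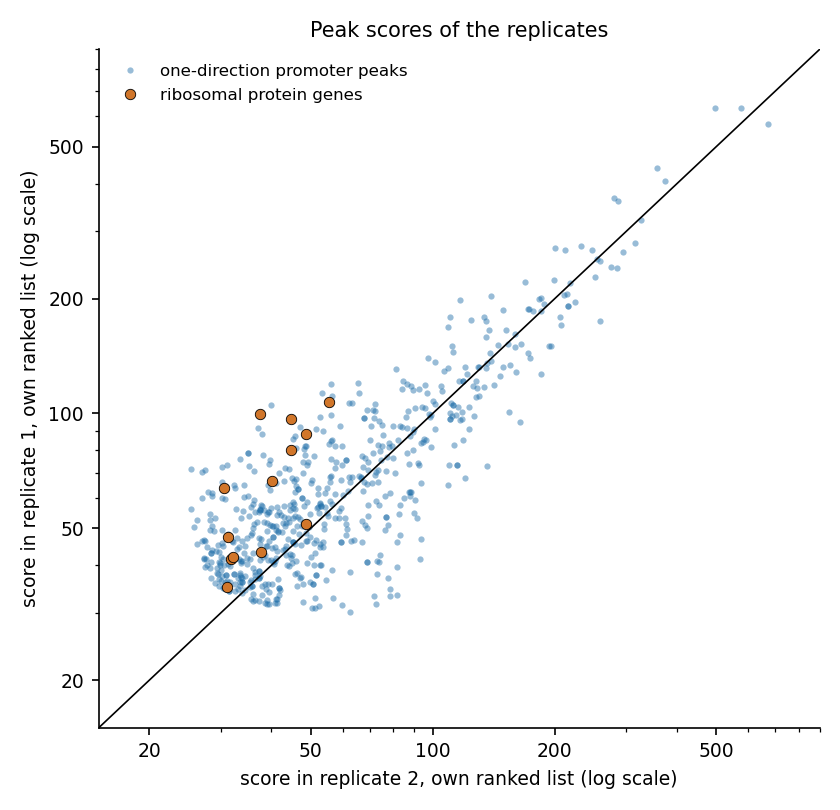
Score of the highest overlapping peak in the ranked list of replicate 1 against that of replicate 2, both on log scales, for 645 one-direction promoter peaks, with the diagonal as a line. The 13 ribosomal protein peaks (orange) all lie above the diagonal, as do 418 of the 645.

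Among signalling genes the counts were small. The Wnt list had 4 of 32 genes (12.5%, 4.97 to 28.1): gish, sgg (209.9), which encodes the fly glycogen synthase kinase 3, nkd (105), for an inhibitor of the pathway, and dlp (5.67), for a glypican that carries Wnt and Hedgehog ligands. The Notch list had 3 of 27 (11.1%): gro (322), for the Groucho co-repressor, numb (135), for the asymmetrically inherited Notch inhibitor, and mam (59.6), for the co-activator Mastermind. The Hippo list had 3 of 23 (13.0%): app (124.5), for a palmitoyltransferase, dco (124), for a casein kinase 1, and Fbxl7 (68.4), for an F-box protein. The Hedgehog list had 2 of 20, rdx (156.5), for an adaptor of a ubiquitin ligase, and dlp. The dlp peak scored less than 2/3 of the sum of its replicate scores (41.03 and 40.85), so it was a shoulder peak in both lists. The receptor tyrosine kinase list had 1 of 54, spi (218.5), which encodes the main ligand of the EGF receptor, and the BMP list 1 of 27, magu (163). None of 13 JAK/STAT genes had one, which allows a share of up to 23.1%.

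In the insulin and TOR list 3 of 36 genes had a peak (8.33%, 2.88 to 21.8), an interval that holds the 3.97% of all genes. All 3 are known for restraining growth when nutrients are short, but no theme is drawn from 3 genes. The peak near Sesn, whose nearest start site is that of CG46429, scored 411. REPTOR, for a transcription factor held back by TOR, had 289, and Thor, for the translation inhibitor 4E-BP, 91.6 with its summit exactly at the start site. REPTOR had no overlapping peak in the ranked list of replicate 2 and scored 180 in replicate 1. Embryonic patterning genes had 4 of 67 (5.97%): gro, Trl (167.5), for the GAGA factor, tin (135), for the heart determinant Tinman, and bcd (87.9), for the anterior morphogen Bicoid. The intervals of the ribosomal protein, Wnt and Hippo lists lie above the background share of 3.97%. The Wnt count includes the shoulder peak at dlp (5.67), and its interval without that peak was not computed. The lists were chosen with earlier results known and no set test was run, so nothing particular to a list is drawn from these intervals.

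Other lists had shares on either side of the background. Mitochondrial ribosomal proteins had 2 of 73 (2.74%), mRpL41 and mRpL4 (78.4), the respiratory chain 1 of 91 (1.10%), UQCR-C2 (71.0), and cuticle proteins 1 of 121 (0.826%), Edg78E (72.0). The heat shock and chaperone list had 3 of 37 (8.11%, 2.80 to 21.3), Hsp27 (317), Hsp83 (184.5) and Hsp26 (100.2), with summits 143, 108 and 135 bp upstream. The Polycomb and Trithorax list had 2 of 37 (5.4%, 1.5 to 17.7), ph-p and E(z) (64.0), for the H3K27 methyltransferase. Both intervals hold the background share. The insulator list had 1 of 27, Trl, and the nuclear receptor list 1 of 35, Eip75B (86.5). No chemosensory receptor gene of 181 had one (a share of up to 1.66%), nor any of 48 proteasome genes (up to 6.25%), 33 aminoacyl-tRNA synthetase genes (up to 9.09%) or 28 nuclear pore genes (up to 10.7%). Of 31 autophagy genes none had a one-direction promoter peak (up to 9.68%), while 9 (29.0%) had a start site near a divergent one, against 679 (4.86%) of all protein-coding genes. Divergent peaks were also near 20 of the 93 ribosomal protein genes (21.5%), 5 of the 33 aminoacyl-tRNA synthetase genes (15.2%) and 4 of the 27 insulator genes (14.8%). CG17612 itself (2L:4380722-4382735) had no promoter peak, and the nearest summit, of score 78.1, was 1065 bp from its start site.

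**Figure D4:**
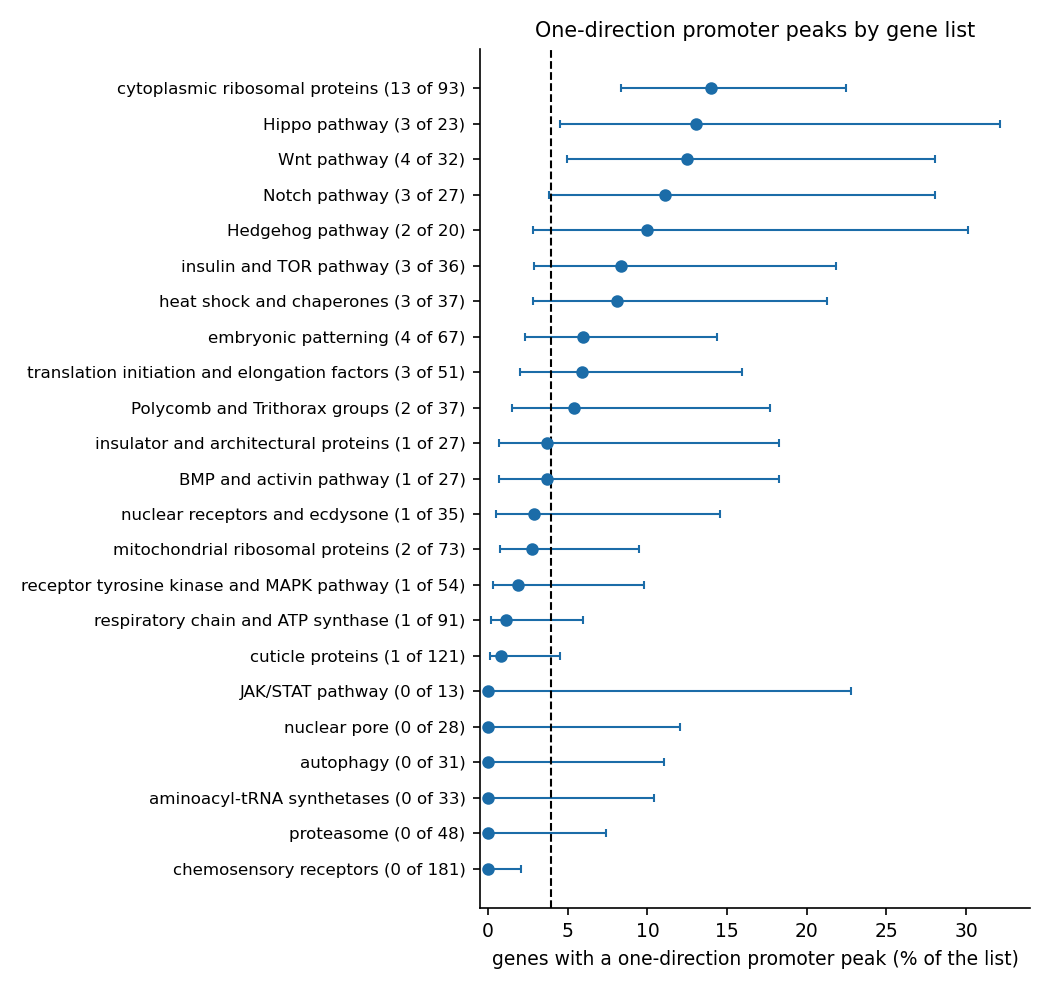
Share of the genes of each list that have a one-direction promoter peak no farther than 500 bp from a start site, with 95% Wilson intervals and the count in brackets. The dashed line marks 3.97%, the share over all 13968 protein-coding genes; the ribosomal protein list lies highest at 14.0%.

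The conservative list keeps peaks that rank alike in both replicates, so the closeness of their scores here follows in part from that choice. A peak of the ranked list overlapped in both replicates at 645 of the 648, the scores were within 2-fold at 610 (94.6%), and their summits were within 50 bp at 486 (75.3%), with a median separation of 22 bp, an upper quartile of 50 bp and a maximum of 337 bp. Spearman's rank correlation coefficient between the replicate scores was 0.708 across these 645 peaks, which were selected for reproducible rank, and it is given as a description. The stricter thresholded lists covered 297 summits in both replicates, 90 in replicate 1 only, 98 in replicate 2 only and 163 in neither. Among the 100 highest peaks, replicate 1 exceeded replicate 2 most at Alg3 (1.70-fold), for a mannosyltransferase of N-glycosylation, Acsf2 (1.62-fold), for an acyl-CoA synthetase, and Ufsp1 (1.54-fold), for a protease of the UFM1 system. The lowest ratios were at the Rtnl1 peak of score 262 (0.576), at CG10413 (0.656) and at the Rtnl1 peak of score 441 (0.676).

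Known promoter words were set against the flank centred 300 bp upstream. Of 12 motifs 1 passed (8.33%), and it was the less frequent at the summit. GAGAG, the repeat that the GAGA factor binds, was in 62 of 648 summit windows (9.57%) and in 119 upstream windows (18.4%; exact McNemar exact adjusted p = 9.95e-05). Of all one-direction promoters 14.2% held it in a window centred 135 bp upstream of the start site, a place not matched to each summit. The TATA box word TATAAA was in 141 summit windows (21.8%) and 105 upstream windows (16.2%; exact adjusted p = 0.0873), with 18.3% at all one-direction promoters and 50 (7.72%) in the downstream flank (exact adjusted p = 2.05e-11 against the summit). Against the upstream flank the difference was not called in the list of replicate 1 (93 against 81 windows, exact adjusted p = 0.833) and was called in that of replicate 2 (105 against 67, exact adjusted p = 0.0154), among the higher-scoring 50% of peaks (exact adjusted p = 0.0160) and at 1000 bp (exact adjusted p = 0.000623). The downstream flank holds more of the transcribed part of the gene. Words were searched on both strands: TATCGATA (DRE), CGATA (BEAF-32), GGTCACAC (M1BP), CAGCTG (E-box), TCAGTT (initiator), TATAAA (for the TATA-binding protein), GAGAG (for Trl), TGCATANTT (Su(Hw) core), CAGGTA (Zelda), AGGNGGC (CTCF core), GAANNTTC (heat shock element) and GCGCATGC (NRF1-like), where CGATA also lies within the DRE word. The GAGAG difference was not called in the list of replicate 1 (52 against 82 windows, exact adjusted p = 0.0880) and was not called in the wide window (167 against 173, exact adjusted p = 1), while replicate 2 gave 37 against 94 (exact adjusted p = 1.54e-06).

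The highest-scoring holders of GAGAG in the summit window were CG1907, a mitochondrial carrier gene, nebu and Acsf2. The first of these is shown as the part of the summit window outside exons, 5′ to 3′ on the strand of the gene from the RefSeq Release 6 genome, with the match, here on the other strand, in capitals.
CG1907, 3R:29618857-29618957, + strand: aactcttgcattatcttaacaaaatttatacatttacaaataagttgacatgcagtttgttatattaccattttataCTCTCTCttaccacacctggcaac
Words of A and T were frequent right at the summit. The word of 8 bases with the lowest p in the narrow window was ATTTAAAA, in 49 summit windows (7.56%) and 15 upstream windows (exact adjusted p = 0.0531), with 5.93% at all one-direction promoters. It passed in the lists of replicate 1 (37 against 6 windows, exact adjusted p = 0.00181) and replicate 2 (39 against 10, exact adjusted p = 0.00864). It also passed in the higher-scoring 50%, at 1000 bp, with protein-coding start sites, with 1 peak per gene and without shoulder peaks. It did not pass in the less strict list, at 250 bp, with start sites of 1 gene only or in the wide window (79 against 37, exact adjusted p = 0.0953). The strongest one-direction promoter peak and another of the 25 highest hold ATTTAAAA, as does the RluA-1 region shown earlier. They are printed on the strand of the gene, where the match appears as its reverse complement, in capitals.
Ugalt, X:2703853-2703939, - strand: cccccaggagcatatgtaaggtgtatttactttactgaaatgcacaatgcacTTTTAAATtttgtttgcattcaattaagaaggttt
CG1635, 3R:31588474-31588574, + strand: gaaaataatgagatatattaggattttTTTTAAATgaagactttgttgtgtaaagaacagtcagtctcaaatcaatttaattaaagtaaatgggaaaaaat
The word was about as common in peaks that held CACAGTG on the 5′ side (5 of 65, 7.69%) as in the others (44 of 583, 7.55%). Among words of 6 bases, a search added after the data were seen, 8 of 2065 passed, of which ATTTTA was the only one more frequent at the summit (191 against 131 windows, exact adjusted p = 0.0433) and 7 were more frequent upstream, led by CTCTCC (13 against 48, exact adjusted p = 0.0113).

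The summits lay in a dip of GC content. Summit windows had a median GC content of 33.7%, against 38.6% in the upstream and 46.5% in the downstream flank. At all one-direction promoters the median was 36.6%, in windows centred 135 bp upstream of the start site. Those windows had 1 fixed place and were not matched to the position of each summit. The 99 narrow peaks had a median of 29.7% and the 549 of common width 35.6%. Mean GC reached its lowest value of 34.9% in the 25 bp window 50 bp upstream of the summit and was 46.5% 150 bp downstream. Around the start site nearest to the summit, mean GC was 50.2% 25 bp downstream, against 44.9% at all one-direction promoters. At 200 bp upstream it was 34.4% against 36.3%. The start sites of the peaks include inner promoters and those of non-coding genes, while all one-direction promoters are outermost sites of protein-coding genes. The sets are therefore unlike, and no difference is drawn from them. The plot of GC content shows these profiles.

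**Figure D5:**
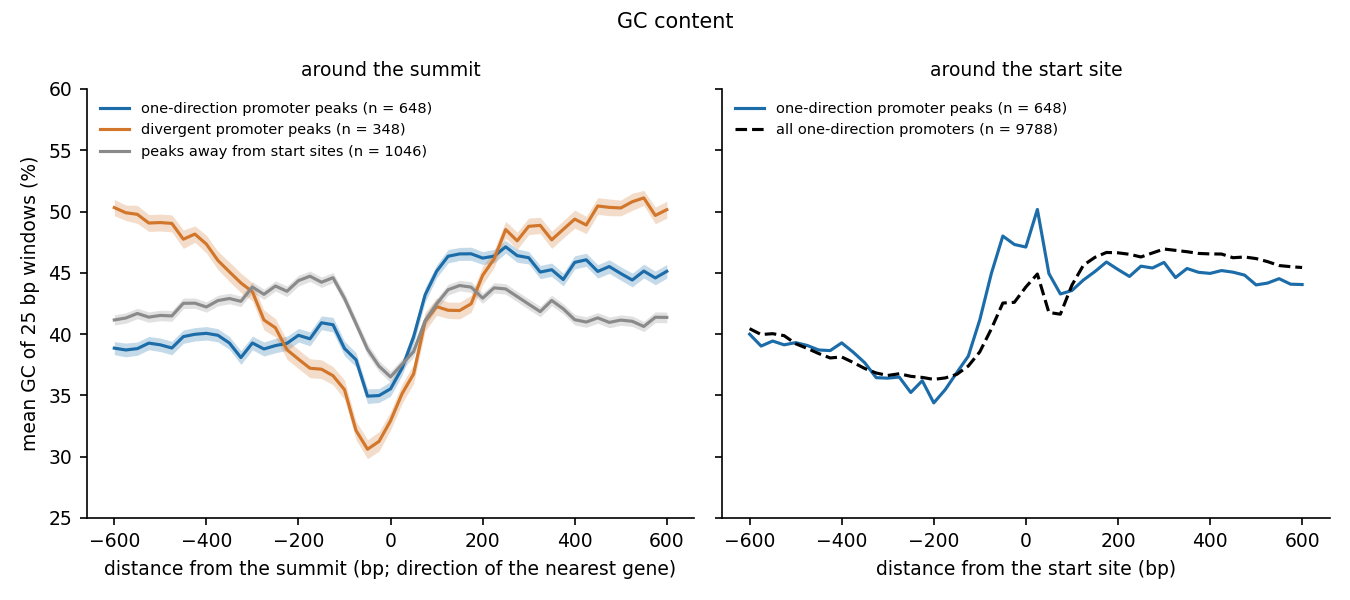
Mean GC content (%) of 25 bp windows around the summit, in the direction of the nearest gene (left, shading ± 1 SEM across peaks), and around the start site (right), by distance in bp. At one-direction promoters (blue, n = 648) the dip at the summit reaches 34.9%, and the side towards the gene stays higher than the side away from it.

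Divergent promoter peaks differed from one-direction ones in 2 of 18 features (11.1%) by Fisher's exact test with Benjamini-Hochberg adjustment. On X lay 126 of 648 one-direction promoter peaks (19.4%, 16.6 to 22.7), against 32 of 348 divergent ones (9.20%, 6.59 to 12.7; exact adjusted p = 0.000302). Among all promoters of protein-coding genes X holds 16.1% of the one-direction and 14.8% of the divergent ones. The difference held in both replicates' own lists, with 19.7% against 9.34% in replicate 1 (exact adjusted p = 0.00445) and 20.5% against 9.01% in replicate 2 (exact adjusted p = 0.00262), and it was called under all 11 alternatives. The DRE word, bound by the factor DREF at promoters of many housekeeping genes, was in 7 one-direction windows (1.08%) and in 15 divergent ones (4.31%; exact adjusted p = 0.0205), while 0.96% of all one-direction promoters held it. Its share at all divergent promoters is not given here, so the divergent peaks have no such background beside them. This second difference was not called in the list of replicate 1 (2.71% against 4.28%, exact adjusted p = 0.832) or replicate 2 (0.922% against 1.35%, exact adjusted p = 0.928). In wide windows it was 2.47% against 10.3% (exact adjusted p = 5.14e-06). Score, width and cover by the replicates' lists did not pass the test between these kinds of peak.

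Set against the 1046 peaks away from start sites, one-direction promoter peaks passed the test in 8 of 18 features (44.4%), and most of these concern peak strength. The features of strength are not separate results. Cover by both replicates is the joint case of cover by each, and narrow one-direction promoter peaks had higher scores (median 312 against 93.7). The score was above the median of all peaks in 358 (55.2%), against 452 of those away (43.2%; exact adjusted p = 9.2e-06), and 99 (15.3%) against 87 (8.32%) were narrow (exact adjusted p = 6.22e-05). Summits lay under a thresholded peak of replicate 1 in 59.7% against 45.2% (exact adjusted p = 1.16e-07), of replicate 2 in 61.0% against 50.3% (exact adjusted p = 7.07e-05) and of both in 45.8% against 33.5% (exact adjusted p = 3.98e-06). The Su(Hw) core was rarer, in 12 windows (1.85%) against 57 (5.45%; exact adjusted p = 0.000597), also in the lists of replicate 1 (2.49% against 9.71%, exact adjusted p = 3.7e-05) and replicate 2 (2.07% against 5.34%, exact adjusted p = 0.0259). TATAAA was in 21.8% against 16.5% (exact adjusted p = 0.0187) and DRE in 1.08% against 0.0956% (exact adjusted p = 0.0161). In the list of replicate 1 alone the differences in TATAAA, in score and in width were not called (exact adjusted p = 0.851, 0.0578 and 0.887). Nor were those in cover by replicate 2 and by both (exact adjusted p = 0.698 each). In the list of replicate 2 alone those in TATAAA and in DRE were not called (exact adjusted p = 0.539 and 0.0748). Among the higher-scoring 50% of peaks no difference in cover was called. The shares there were 88.0% against 83.2% for replicate 1 (exact adjusted p = 0.149) and 88.8% against 86.5% for replicate 2 (exact adjusted p = 0.551). For both replicates they were 78.2% against 72.1% (exact adjusted p = 0.149). X held 19.4% of the one-direction promoter peaks and 22.3% of those away (exact adjusted p = 0.321).

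The genes upstream of these promoters were set beside those of all one-direction promoters. For peaks at the first start-site cluster of a protein-coding gene, 1 per gene, the nearest gene upstream was on the same strand in 212 of 326 cases (65.0%, 59.7 to 70.0), against 64.3% of all one-direction promoters. That neighbour ended within 1 kb in 132 of the 212 (62.3%, 55.6 to 68.5), against 65.5%, and its median distance was 660.5 bp, against 516 bp. The start site lay inside another gene in 55 of 381 (14.4%, 11.3 to 18.3), against 21.0% of all one-direction promoters. No test was run on these shares.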

How the data were processed

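Peak lists came from ChIP-seq of CG17612-eGFP in 1 group of 2 biological replicates, numbered as in the labels. Per the labels chromatin was sonicated and precipitated with anti-GFP (the antibody label says CG17612), and a control experiment named there was not analysed here. The score of a peak is the signal value in the authors' deposited lists, with no stated scale. All lists are on dm6 per the labels. Aligner and peak caller: not given in the sources used here. Read counts were not analysed here, so the depth per sample is unknown and scores carry no interval.

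Members came from the conservative IDR thresholded list of both replicates together (2094 peaks, 2042 on the arms). Replicate scores are those of the highest peak overlapping by at least 1 bp in each replicate's own ranked list, and the ranked lists of both replicates together were not used. Start sites came from Ensembl release 115 (BDGP 6.54, 24111 sites, no transposable elements), where the site nearest to the summit gave position and gene, and sequences from the RefSeq Release 6 genome. Last peak ends were checked against arm lengths. Coordinates are 1-based. "All one-direction promoters" are those of protein-coding genes at their outermost start site, with windows centred 135 bp upstream.

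Motifs and words of 8 bases held by at least 10 windows were tested with exact McNemar tests, and shares between kinds of peak with Fisher's exact test, two-sided, adjusted by Benjamini-Hochberg within each family, with a threshold of 0.05. The tests were tried on simulated windows with known answers. Genes named are the 25 highest peaks, up to 4 per gene list, those next to the 500 bp limit, extremes of the replicate ratio, peaks with several genes, holders of called motifs and CG17612; genes with 3 or more peaks and holders of CACAGTG were added after their values were seen. The members and the 24 gene lists were chosen with earlier results of these data known. The result of 1 list is not reported here. Shares have 95% Wilson intervals, and for a count of 0 the limit is 3 counts. The alternatives used the less strict list, the list of each replicate, the higher-scoring 50%, a start-site distance of 250 or 1000 bp, coding genes only, 1 gene or 1 peak per gene, a wide window of 100 bp to either side and a downstream flank; leaving out shoulder peaks and words of 6 bases were added after seeing the data. Python 3.11.15, pandas 2.3.3, NumPy 2.4.6, SciPy 1.17.1 and matplotlib 3.10.9 were used.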

Additional observations from a re-analysis of the deposited data

How the results depend on the processing

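The share of peaks at one-direction promoters was 33.1% to 35.2% in the lists of single replicates, 35.1% in the higher-scoring 50%, 27.5% at 250 bp, 37.3% at 1000 bp and 29.7% with protein-coding start sites. The share of summits upstream was 81.9% to 82.7%, 85.2%, 82.7%, 70.6% and 81.1% under the same settings. Against the upstream flank 0 to 2 motifs passed in single replicates, 2 in the higher-scoring 50%, 2 at 1000 bp, 0 in the wide window and 2 against the downstream flank. Words of 8 bases that passed numbered 1 of 1105 in replicate 1, 5 of 1133 in replicate 2, 4 of 801 in the higher-scoring 50% and 4 of 2866 at 1000 bp. They were 2 of 7494 in the wide window and 90 of 1987 against the downstream flank. With protein-coding start sites 1 of 1946 passed, with 1 peak per gene 1 of 1875 and without shoulder peaks 1 of 1984. None of 2440 passed in the less strict list, of 1691 at 250 bp or of 2005 with start sites of 1 gene only. Against divergent promoters 1 to 3 features passed in single replicates, 1 each in the less strict list, the higher-scoring 50% and with protein-coding start sites, and 5 each at 250 bp and in the wide window; against peaks away from start sites 3 to 5 passed in single replicates and 3 in the higher-scoring 50%. The cause was not tested. Words of 6 bases that passed ranged from 0 of 2045 at 250 bp to 348 of 2072 against the downstream flank. No result reversed. The differences in X and in the Su(Hw) core were called under all 11 alternatives, that in DRE against divergent promoters in 5 of 11, that in TATAAA against peaks away from start sites in 4 of 11 and that in GAGAG in 10 of 12. The TATAAA difference was lost in both single replicates, in the less strict list, in the higher-scoring 50%, at 250 and 1000 bp and in the wide window. No paired analysis was possible because there is 1 group. With the depth unknown, the number of weaker peaks missed cannot be given.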
